A study of Mus musculus with 6 samples.

Results

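The Cyp4a genes of mouse liver encode cytochrome P450 fatty acid omega-hydroxylases, and they were followed here in 6 messenger RNA libraries from livers with or without DEHP, di(2-ethylhexyl) phthalate, a plasticizer. Members were the rows of the deposited gene count table named by 1 of 9 Cyp4a or Cyp4f symbols, together with protein-coding rows that carry an identifier as name and a Cyp4a symbol in their description. This gave 7 of 42380 rows: 4 Cyp4a rows and 3 Cyp4f rows kept as a contrast within the family. Of the 9 symbols, 5 had a row of their own, namely Cyp4a14, Cyp4a32, Cyp4f13, Cyp4f14 and Cyp4f15. Cyp4a10, Cyp4a12a, Cyp4a12b and Cyp4a31 had none. The other 2 Cyp4a rows, called G0029025 and G0029026 after the ends of their identifiers, are both described in the table as Cyp4a10, as is Cyp4a32. All 7 rows passed the filter on low counts and entered the test over 12468 genes.

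There were 3 control libraries and 3 exposed libraries of liver tissue, and control or exposed livers below stand for these libraries. The 3 columns of the table that carry the word High were taken as the exposed libraries, since the titles give no other group. Replicate numbers were matched to the titles. No strain, sex, age, dose, route or duration of exposure was given in the sources used here. Whether each library is a separate animal is not stated either, so a p-value here measures only how these samples scatter, which may be technical. Total counts ran from 10410098 to 14229803 per library. Each library came from bulk tissue, in which fewer cells of a type and less RNA per cell cannot be told apart.

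Omega-hydroxylases place a hydroxyl group on the terminal methyl carbon of a fatty acid. Alcohol and aldehyde dehydrogenases then turn the product into a dicarboxylic acid, which peroxisomes shorten by beta-oxidation. Cyp4a10 and Cyp4a14 are textbook targets of PPARalpha, the nuclear receptor for fatty acids and peroxisome proliferators, a class of compounds that includes phthalate esters such as DEHP. Cyp4a12a and Cyp4a12b are known as male-predominant liver enzymes and oxidise arachidonic acid, while Cyp4f enzymes act on leukotrienes and other long-chain acids.

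Some Cyp4a genes are near-copies of each other, which bears on what a row of counts can tell apart. Over aligned transcript bases, Cyp4a12a and Cyp4a12b were 98.3% identical, and Cyp4a10, Cyp4a31 and Cyp4a32 were 95.7% to 97.2% identical. Cyp4a14 was 77.3% to 79.3% identical to the other Cyp4a genes. A 97-base coding stretch of exon 12 is shown because it begins at the codons around the cysteine that holds the heme iron of a P450, and because it shows how far reads could separate the copies. The sequences were read from the GENCODE M21 transcripts on GRCm38, 5′ to 3′ on the coding strand, and capitals mark bases that differ from Cyp4a14.
Cyp4a14: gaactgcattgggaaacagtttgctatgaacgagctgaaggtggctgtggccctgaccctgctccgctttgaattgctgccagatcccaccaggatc
Cyp4a10 and Cyp4a31: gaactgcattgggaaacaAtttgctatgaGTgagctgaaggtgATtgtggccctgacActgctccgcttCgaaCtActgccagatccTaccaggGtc
Cyp4a32: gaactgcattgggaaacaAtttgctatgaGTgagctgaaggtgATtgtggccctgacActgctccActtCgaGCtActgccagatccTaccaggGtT
Cyp4a12a and Cyp4a12b: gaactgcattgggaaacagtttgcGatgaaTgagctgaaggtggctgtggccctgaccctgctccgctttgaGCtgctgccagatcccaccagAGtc

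On GRCm38 these stretches lie at chr4:115487215-115487311 on the minus strand for Cyp4a14, and on the plus strand at chr4:115532531-115532627 for Cyp4a10, chr4:115577936-115578032 for Cyp4a31 and chr4:115621434-115621530 for Cyp4a32. Those of the remaining pair lie at chr4:115331834-115331930 (Cyp4a12a) and chr4:115438057-115438153 (Cyp4a12b), also on the plus strand. Cyp4a10 and Cyp4a31 did not differ from each other over the 97 bases, and Cyp4a32 differed from Cyp4a10 at 3 of them. Cyp4a14 differed from Cyp4a10 at 11 bases, from Cyp4a32 at 14 and from Cyp4a12a at 6.

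Over whole transcripts, 0% of the 50-base windows of Cyp4a14 occurred in another of the 9 genes. The share was 46.8% for Cyp4a32, 30.5% for Cyp4a10, 20.1% for Cyp4a31, 48.9% for Cyp4a12a and 49.4% for Cyp4a12b. It was at most 2% for a Cyp4f gene. Reads of Cyp4a14 can thus be told from those of the other genes by sequence in windows of this length, whereas the split of reads among G0029025, G0029026 and Cyp4a32 is uncertain.

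The deposited spans add a second uncertainty. In the coordinates of the table, which carries identifiers of the C57BL/6NJ strain annotation, Cyp4a14 spans chr4:120796272-120806214 on the minus strand. G0029025 spans chr4:120829970-120973942 on the plus strand, and this span holds both G0029026 (chr4:120879248-120910173) and Cyp4a32 (chr4:120936499-120973165), which lie on the same strand. The Cyp4f rows lie on chromosome 17, with Cyp4f15 at chr17:33646596-33663599 on the plus strand, Cyp4f14 at chr17:33918218-33931561 and Cyp4f13 at chr17:33938858-33961336, both on the minus strand. All 7 rows are annotated as protein-coding genes, and counts were made per gene, with no split by exon.

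**Figure D1:**
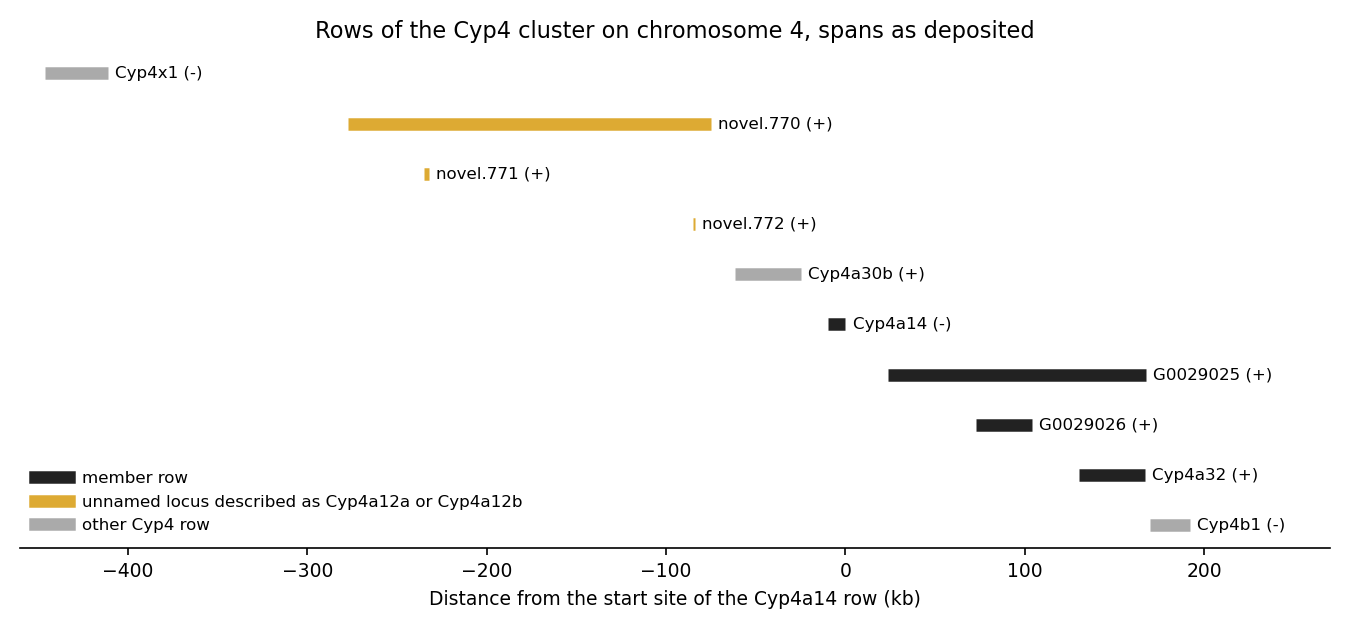
Rows of the Cyp4 cluster on chromosome 4 as spans in the deposited table, plotted by distance in kilobases from the start site of the Cyp4a14 row, with the strand in brackets; black bars are members, yellow bars are loci without a gene name and grey bars are other Cyp4 rows. The bar of G0029025 covers those of G0029026 and Cyp4a32, while Cyp4a14 overlaps no other row drawn.

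Cyp4a14 held most of the reads of the group. It took 76.0% to 88.2% of the counts of the 4 Cyp4a rows in each library, and 68.9% to 84.2% of their summed level per length. Its level was 858, 714 and 2231 CPM in control replicates 1 to 3 and 2630, 3256 and 2633 CPM in exposed replicates 1 to 3, where CPM are counts scaled to the size of each library. Control replicates 1 and 2 were low, control replicate 3 came close to the exposed livers, and the groups did not overlap. The level went from 1268 ± 838 to 2840 ± 360 CPM (SD, n = 3), a log2 fold change of 1.16 ± 0.40 (SE). This did not pass an adjusted p of 0.05 in edgeR's quasi-likelihood test (adjusted p = 0.303).

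The spread of Cyp4a14 lay on the control side. The SD of its log2 level was 0.88 among controls and 0.18 among exposed livers. Relative to the mean log2 level of the exposed livers, control replicates 1, 2 and 3 stood at -1.72, -1.98 and -0.34. Without control replicate 3, the control nearest to the exposed livers, Cyp4a14 rose by 1.88 ± 0.24 on the log2 scale (edgeR adjusted p = 1.31e-04). Its log2 fold change was 0.95 ± 0.44 without control replicate 1 (edgeR adjusted p = 0.691) and 0.88 ± 0.36 without control replicate 2 (adjusted p = 0.439).

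G0029025, the longest-spanning row described as Cyp4a10, was the second Cyp4a row by level. It stood at 86.8, 123 and 322 CPM in controls and at 325, 604 and 614 CPM in exposed livers. Control replicate 3 was again the highest control and lay just under exposed replicate 1, so that the groups did not overlap. The mean went from 177 ± 127 to 514 ± 164 CPM (SD, n = 3), with a log2 fold change of 1.54 ± 0.55 (SE, edgeR adjusted p = 0.345). The row rose by 2.32 ± 0.30 without control replicate 3 (edgeR adjusted p = 2.10e-04). Without control replicate 1 the log2 fold change was 1.21 ± 0.48 (adjusted p = 0.667), and without control replicate 2 it was 1.33 ± 0.60 (adjusted p = 0.503).

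Cyp4a32, the member row with the shortest deposited gene length, was measured at 20.8, 39.6 and 82.6 CPM in controls and at 85.6, 149 and 178 CPM in exposed livers. Its groups touched closely but did not overlap, with control replicate 3 next to exposed replicate 1. The log2 fold change was 1.53 ± 0.54 (SE, edgeR adjusted p = 0.344), between means of 47.7 ± 31.7 and 138 ± 47.1 CPM (SD, n = 3). With control replicate 3 left out it rose by 2.21 ± 0.35 (edgeR adjusted p = 0.00220). With control replicate 1 left out the log2 fold change was 1.17 ± 0.40 (adjusted p = 0.581), and with control replicate 2 left out 1.42 ± 0.66 (adjusted p = 0.528).

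G0029026, the other row described as Cyp4a10, followed another pattern. Its level was 6.80, 19.0 and 73.1 CPM in controls and 41.4, 44.1 and 39.2 CPM in exposed livers. Control replicate 3 was the highest of the 6 libraries and control replicate 1 the lowest, so the exposed livers lay inside the range of the controls. Its log2 fold change was 0.34 ± 0.90 (SE, edgeR adjusted p = 0.914). Without control replicate 3 it rose by 1.71 ± 0.35 (edgeR adjusted p = 0.0128), and without control replicate 1 the log2 fold change was -0.14.

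**Figure D2:**
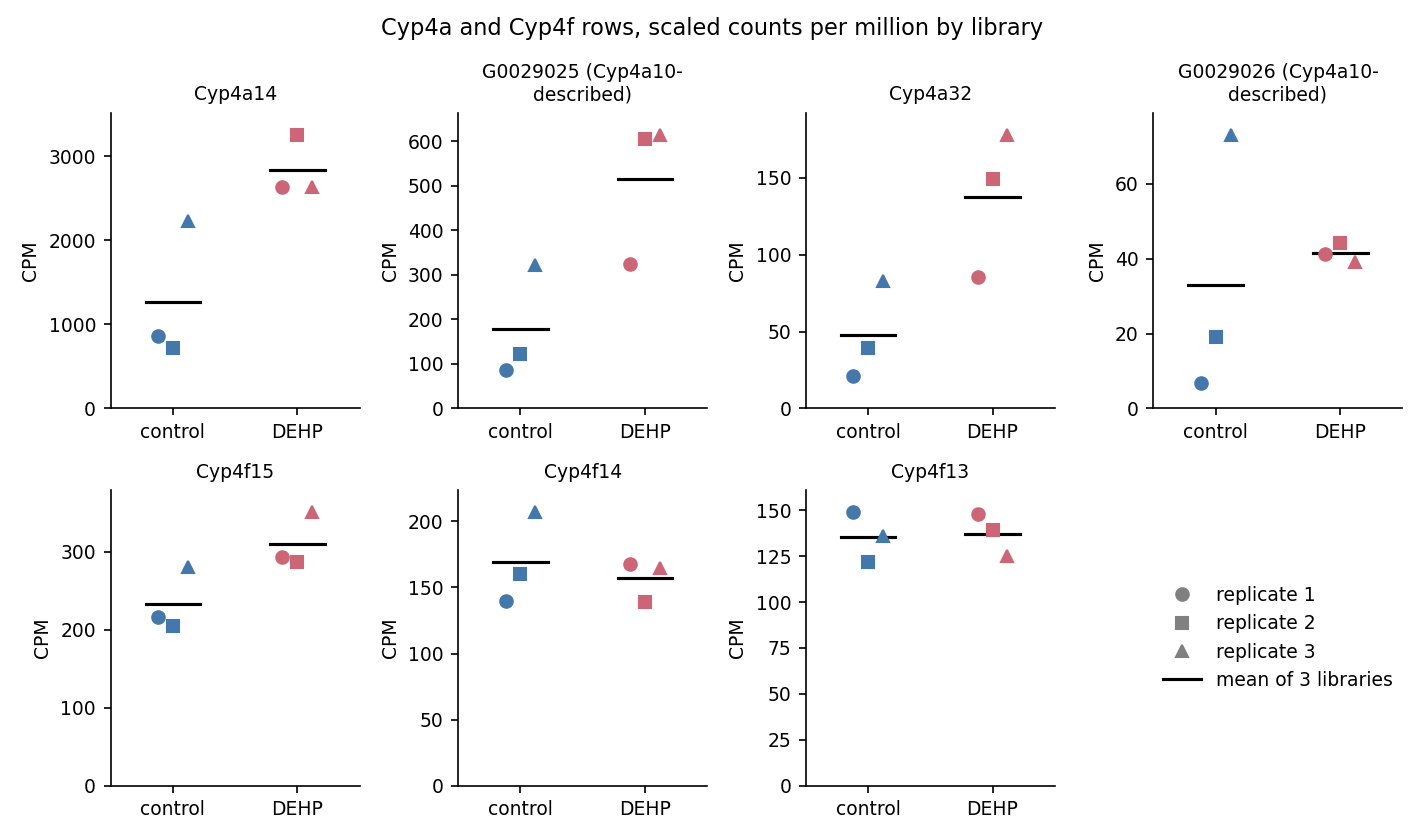
Level of each of the 7 rows in scaled counts (CPM, linear axis from 0, a scale per panel) in control and DEHP livers; symbols are single libraries by replicate number and black lines are group means of 3. In Cyp4a14, G0029025 and Cyp4a32 every DEHP library lies above every control, and in G0029026 control replicate 3, at 73.1 CPM, is the highest library.

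The levels of different rows can be ordered per length. In controls the mean level per kilobase was 487 ± 322 RPKM for Cyp4a14, 90.9 ± 65.1 for G0029025, 33.3 ± 22.1 for Cyp4a32 and 14.6 ± 15.7 for G0029026 (SD, n = 3). In exposed livers it was 1092 ± 139, 264 ± 84.2, 96.0 ± 32.9 and 18.5 ± 1.07 RPKM, in the same order. In controls, the differences of Cyp4a32 from G0029026 and of G0029025 from Cyp4a32 were smaller than the larger SD of the pair. That SD is between libraries, and within each control library the order was the same. G0029025, Cyp4a32 and G0029026 were at 44.5, 14.5 and 3.02 RPKM in control replicate 1. They were at 62.8, 27.6 and 8.45 RPKM in control replicate 2 and at 165, 57.6 and 32.4 RPKM in control replicate 3. The order among the 3 rows described as Cyp4a10 also rests on how shared reads were split.

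Summed over the 4 Cyp4a rows, which is less exposed to that split, the level was 973, 895 and 2710 CPM in controls and 3082, 4053 and 3464 CPM in exposed livers. The groups did not overlap, and control replicate 3 was nearer to the exposed livers than to the other controls. Mean levels were 1526 ± 1026 and 3533 ± 489 CPM (SD, n = 3), with a difference of mean log2 levels of 1.40. The two-sided exact permutation p was 0.1, the smallest that 3 against 3 can give. As a share of all counts, the 4 rows took 0.0902% to 0.255% in controls and 0.292% to 0.374% in exposed livers. When G0029025, G0029026 and Cyp4a32 were summed to 1 row before the test, its log2 fold change was 1.43 ± 0.58 (SE, edgeR adjusted p = 0.385). That sum was 114, 181 and 478 CPM in controls and 452, 797 and 831 CPM in exposed livers, and control replicate 3 overlapped exposed replicate 1.

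By count, 0 of 4 Cyp4a rows and 0 of 3 Cyp4f rows passed an adjusted p of 0.05 in edgeR, against 0.0722% of all genes tested. DESeq2 and limma-voom also called 0 of these 7 rows. At an unadjusted p under 0.05, 3 of 4 Cyp4a rows were higher with DEHP, and 0 of 3 Cyp4f rows were, where 6.11% of all genes tested were higher. Every exposed library lay above every control in 3 of 4 Cyp4a rows and in 1 of 3 Cyp4f rows, against 9.17% of all genes. Both Cyp4a counts include G0029025 and Cyp4a32, whose split of reads is uncertain, so these rows are not separate measurements. Summed with G0029026 to 1 row, they had an unadjusted p of 0.0513 in edgeR, and the groups overlapped. Without control replicate 3, 4 of 4 Cyp4a rows and 0 of 3 Cyp4f rows were higher at an adjusted p of 0.05 in edgeR, against 0.946% of 12890 genes tested. The median log2 fold change of the 4 Cyp4a rows was 1.35 with all libraries and 2.04 without control replicate 3. It was 1.06 and 1.11 without control replicates 1 and 2 in turn. Over all genes tested the median was -0.03.

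**Figure D3:**
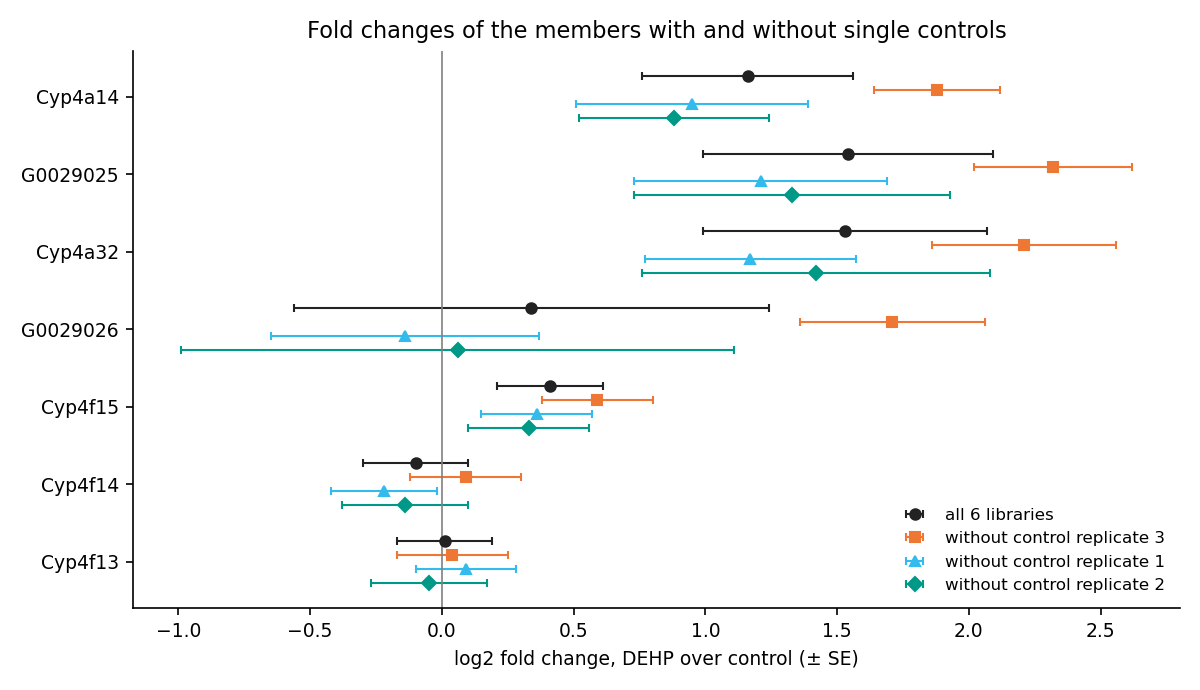
Log2 fold change of DEHP over control livers (x axis, ± SE from edgeR) for each of the 7 rows, with all 6 libraries and with 1 control left out at a time. The 4 Cyp4a rows move right without control replicate 3, Cyp4a14 from 1.16 to 1.88, while the Cyp4f rows stay between -0.22 and 0.59.

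Control replicate 3 stood apart from the other controls well beyond the Cyp4a genes. The summed level of 25 interferon-stimulated genes was 6728, 5466 and 979 CPM in control replicates 1 to 3 and 766 to 872 CPM in exposed livers, and 21 of 24 tested were lower with DEHP at an unadjusted p under 0.05, against 6.97% of all genes tested. Acute phase genes, which hepatocytes transcribe in inflammation, summed to 54644, 50925 and 29675 CPM in controls and to 23467 to 28887 CPM in exposed livers. The 10 markers of Kupffer cells and macrophages summed to 861, 786 and 251 CPM in controls and to 266 to 389 CPM in exposed livers, with 0 of 10 at 0 and 5 of 10 lower at an unadjusted p under 0.05, against the same 6.97%. Control replicates 1 and 2 were therefore the libraries low in Cyp4a and high in these groups of genes. The part of this split in the Cyp4a values was not tested. With control replicate 3 as the only control, the log2 fold changes were 0.36 for Cyp4a14, 0.69 for G0029025, 0.75 for Cyp4a32 and -0.80 for G0029026, none past the threshold in edgeR (adjusted p = 0.988 for each of the first 3 and 0.746 for the last). In that fit the lone control is assumed to vary like the exposed livers. Hepatocyte markers summed to 112353 to 158550 CPM in controls and 100251 to 132974 CPM in exposed livers, abundant in every library, as in liver. Kidney tubule markers, listed because kidney also expresses Cyp4a genes, summed to at most 0.709 CPM in any library, with 2 of 7 at 0.

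The 3 rows described as Cyp4a10 were compared with Cyp4a14 directly. The log2 ratio to Cyp4a14 was higher with DEHP by 0.36 for G0029025 (two-sided exact permutation p = 0.4) and by 0.34 for Cyp4a32 (exact permutation p = 0.5). For G0029026 the difference in ratio was -0.38 (exact permutation p = 0.6). Adjusted over the 3 pairs, p was 0.6 for each, and the groups overlapped in all 3 ratios. A difference in response between Cyp4a14 and the other rows was not detected with 3 libraries a group, whose smallest possible p is 0.1.

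The Cyp4f rows gave smaller differences. Cyp4f15 was at 216, 205 and 280 CPM in controls and 294, 287 and 351 CPM in exposed livers, and these groups did not overlap. Its log2 fold change was 0.41 ± 0.20 (SE, edgeR adjusted p = 0.395) between 234 ± 40.9 and 311 ± 35.3 CPM (SD, n = 3). Cyp4f14, which inactivates leukotriene B4 by omega-hydroxylation, was at 140, 160 and 207 CPM in controls and 168, 139 and 165 CPM in exposed livers. The exposed livers all lay below control replicate 3, the groups overlapped, and the log2 fold change was -0.10 ± 0.20 (SE, edgeR adjusted p = 0.873). Cyp4f13 was at 149, 122 and 136 CPM in controls and 148, 139 and 125 CPM in exposed livers, with a log2 fold change of 0.01 ± 0.18 (SE, edgeR adjusted p = 0.983). Its groups covered the same range. Per length, control levels were 102 ± 17.9 RPKM for Cyp4f15, 70.3 ± 14.4 for Cyp4f14 and 40.8 ± 4.05 for Cyp4f13 (SD, n = 3), all below the control mean of Cyp4a14.

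The difference between the families was tested as a ratio within each library. The log2 ratio of the summed Cyp4a counts to the summed Cyp4f counts was 0.95, 0.88 and 2.12 in controls and 2.34, 2.84 and 2.43 in exposed livers. The mean went from 1.31 to 2.54, by 1.22, the groups did not overlap, and the two-sided exact permutation p was 0.1, the smallest possible. Left out in turn, single libraries gave differences of 1.00 to 1.63. The summed Cyp4f level itself was 487 to 624 CPM in controls and 565 to 642 CPM in exposed livers (log2 difference 0.18, exact permutation p = 0.3).

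RefSeq promoter windows on GRCm38.p6 were matched for 4 of the 9 symbols, Cyp4a32, Cyp4f13, Cyp4f14 and Cyp4f15. A Cyp4a and a Cyp4f promoter are shown because the data contrast the families, Cyp4a32 from chr4:115600688-115600926 on the plus strand and Cyp4f14 from chr17:32917377-32917606 on the minus strand, in lower case as no motif searched was found in them.
Cyp4a32 promoter: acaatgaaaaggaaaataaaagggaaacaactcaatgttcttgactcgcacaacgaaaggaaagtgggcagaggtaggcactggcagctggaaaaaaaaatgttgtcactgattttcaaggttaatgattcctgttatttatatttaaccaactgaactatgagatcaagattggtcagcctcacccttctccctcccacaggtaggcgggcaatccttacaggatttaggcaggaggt
Cyp4f14 promoter: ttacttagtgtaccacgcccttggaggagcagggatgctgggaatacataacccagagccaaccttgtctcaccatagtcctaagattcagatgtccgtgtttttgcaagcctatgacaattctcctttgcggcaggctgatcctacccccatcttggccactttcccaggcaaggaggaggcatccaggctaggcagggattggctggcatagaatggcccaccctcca

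The motifs searched were AGGTCANAGGTCA, the direct repeat that PPAR and RXR bind as a pair, AGGNCANAGGNCA, which frees a base in each repeat, the single repeat AGGTCA, all on both strands, and TATAAA on the strand of the gene. The first is contained in the second, and both of its repeats match the third. Of 32851 promoter windows of the table, 0.0396% held the first, 0.381% the second, 16.3% the third and 8.32% the fourth. No window of the 4 matched symbols held any of them, which says only that these letters are not in these windows.

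Other Cyp4 rows gave further context. Of 8 listed Cyp4 genes outside the members that had a row, 4 were tested and 0 passed an adjusted p of 0.05 in edgeR. At an unadjusted p under 0.05, 1 of the 4 was lower with DEHP, where 6.97% of all genes tested were. The most abundant were Cyp4v3, a fatty acid hydroxylase, at 271 ± 56.5 and 361 ± 96.3 CPM (log2 fold change 0.41 ± 0.23, edgeR adjusted p = 0.462), and Cyp4f17, at 8.21 ± 3.12 and 13.1 ± 4.00 CPM (0.68 ± 0.33, adjusted p = 0.392). Cyp4a12a and Cyp4a12b are named only in the descriptions of 3 loci without a gene name, outside the members and outside library sizes. The first of these, spanning chr4:120528722-120731142, held most of their reads in every library, with 222, 426 and 670 counts in controls and 1190, 1208 and 500 counts in exposed livers. Summed, the 3 loci were at 15.7, 34.1 and 65.5 CPM in controls and at 121, 106 and 50.7 CPM in exposed livers. Exposed replicates 1 and 2 lay above all controls, and exposed replicate 3 below control replicate 3 (log2 difference 1.40, exact permutation p = 0.2).

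The genes whose products act with or after the omega-hydroxylases were read from lists that follow the pathway. P450 enzymes receive electrons from the reductase Por and from cytochrome b5. Of 8 tested genes of electron supply, 2 were higher and 0 lower at an unadjusted p under 0.05, against 6.11% and 6.97% of all genes. The median log2 fold change of the list was 0.26. The 2 most abundant were Cyb5a, the microsomal cytochrome b5, from 1132 ± 133 to 1388 ± 32.1 CPM (log2 fold change 0.30 ± 0.19, edgeR adjusted p = 0.534), and Pgrmc1, a heme-binding partner of P450s, from 863 ± 48.0 to 1173 ± 203 CPM (0.44 ± 0.20, adjusted p = 0.368). Por itself, named after its values were seen, was at 500, 705 and 810 CPM in controls and 1366, 1243 and 1473 CPM in exposed livers. Every exposed liver lay above every control, with a log2 fold change of 1.02 ± 0.21 (edgeR adjusted p = 0.128). Without control replicate 3, the control nearest to the exposed livers, Por rose by 1.20 (edgeR adjusted p = 0.00700). Leaving out the nearest control favours a larger rise, here and in the lists below, so it is no separate support. Fits without control replicate 1 or 2 are not given for these genes.

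The next steps oxidise the omega-alcohol to the dicarboxylic acid. Of 8 tested alcohol and aldehyde dehydrogenases, 2 were higher and 0 lower at an unadjusted p under 0.05, against 6.11% and 6.97% of all genes. The median of the list was 0.38. Adh1, the main liver alcohol dehydrogenase, went from 2146 ± 389 to 2807 ± 395 CPM (0.39 ± 0.21, edgeR adjusted p = 0.448), and the mitochondrial Aldh2 was at 2180 ± 397 and 2323 ± 443 CPM (0.09 ± 0.22, adjusted p = 0.901). Aldh3a2, the microsomal fatty aldehyde dehydrogenase, named after its values were seen, was at 186, 221 and 264 CPM in controls and 429, 348 and 401 CPM in exposed livers. Its groups did not overlap (0.81 ± 0.20, edgeR adjusted p = 0.162). Without control replicate 3, again the control nearest to the exposed livers, Aldh3a2 rose by 0.97 (edgeR adjusted p = 0.0212).

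Peroxisomes take up and shorten the dicarboxylic acids. Of 22 tested genes of import and beta-oxidation, 19 had a positive log2 fold change, where 47.1% of all genes tested did. At an unadjusted p under 0.05, 7 were higher and 0 lower, against 6.11% and 6.97% of all genes, and the median was 0.42. Without control replicate 3, in this list the control nearest to the exposed livers by median, 3 of them rose at an adjusted p of 0.05. That is against 0.946% of all genes tested in that fit, and the median of the list was 0.60. Scp2, which encodes a peroxisomal thiolase and sterol carrier, was at 1981 ± 224 and 2557 ± 252 CPM (0.37 ± 0.20, edgeR adjusted p = 0.439), and Slc27a2, a very-long-chain acyl-CoA synthetase, at 1546 ± 452 and 2256 ± 353 CPM (0.55 ± 0.23, adjusted p = 0.354).

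PPARalpha and its partners had values near 0. Of 17 tested genes of this list, 9 had a positive log2 fold change, near the 47.1% of all genes, and the median was 0.02. At an unadjusted p under 0.05, 1 was higher and 0 lower, against 6.11% and 6.97% of all genes. The 2 most abundant were Hnf4a, at 721 ± 148 and 693 ± 36.6 CPM (-0.06 ± 0.20, edgeR adjusted p = 0.937), and Rxra, the partner of PPARalpha, at 416 ± 8.92 and 380 ± 60.2 CPM (-0.13 ± 0.19, adjusted p = 0.816). Ppara, named outside the rule as the receptor itself, was at 28.8, 36.1 and 32.3 CPM in controls and 34.4, 25.1 and 23.9 CPM in exposed livers, with overlapping groups (-0.22 ± 0.21, adjusted p = 0.699).

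Targets of PPARalpha outside omega-oxidation were mixed. Of 25 tested, 18 had a positive log2 fold change, against 47.1% of all genes. At an unadjusted p under 0.05, 5 were higher and 2 lower, against 6.11% and 6.97% of all genes, and the median was 0.19. Control replicate 3 was the control nearest to the exposed livers by the median of this list. With it left out, 4 rose and 0 fell at an adjusted p of 0.05, where 0.946% of all genes tested rose. Fabp1, the liver fatty acid binding protein, was at 1471 ± 306 and 1378 ± 584 CPM (-0.09 ± 0.28, edgeR adjusted p = 0.921). The median of the Cyp4a rows, 1.35, was above that of each of these 5 lists.

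Epoxygenases and epoxide hydrolases, which form and remove the epoxides of arachidonic acid and so share a substrate with the omega-hydroxylases, had a median of 0.73 over 12 tested genes. Of these, 6 were higher and 0 lower at an unadjusted p under 0.05, against 6.11% and 6.97% of all genes tested. In 7, every exposed liver lay above every control, against 9.17% of all genes. Without control replicate 3, here too the nearest control by median, 4 rose at an adjusted p of 0.05. That is against 0.946% of all genes tested in that fit. The most abundant were both hydrolases. Ephx2, the soluble epoxide hydrolase, was at 781 ± 171 and 947 ± 159 CPM (0.28 ± 0.22, edgeR adjusted p = 0.622). Ephx1 was at 637 ± 92.3 and 618 ± 217 CPM (-0.04 ± 0.24, adjusted p = 0.958). The 6 genes that were higher at an unadjusted p under 0.05 were all P450 genes of the Cyp2c and Cyp2j families.

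**Figure D4:**
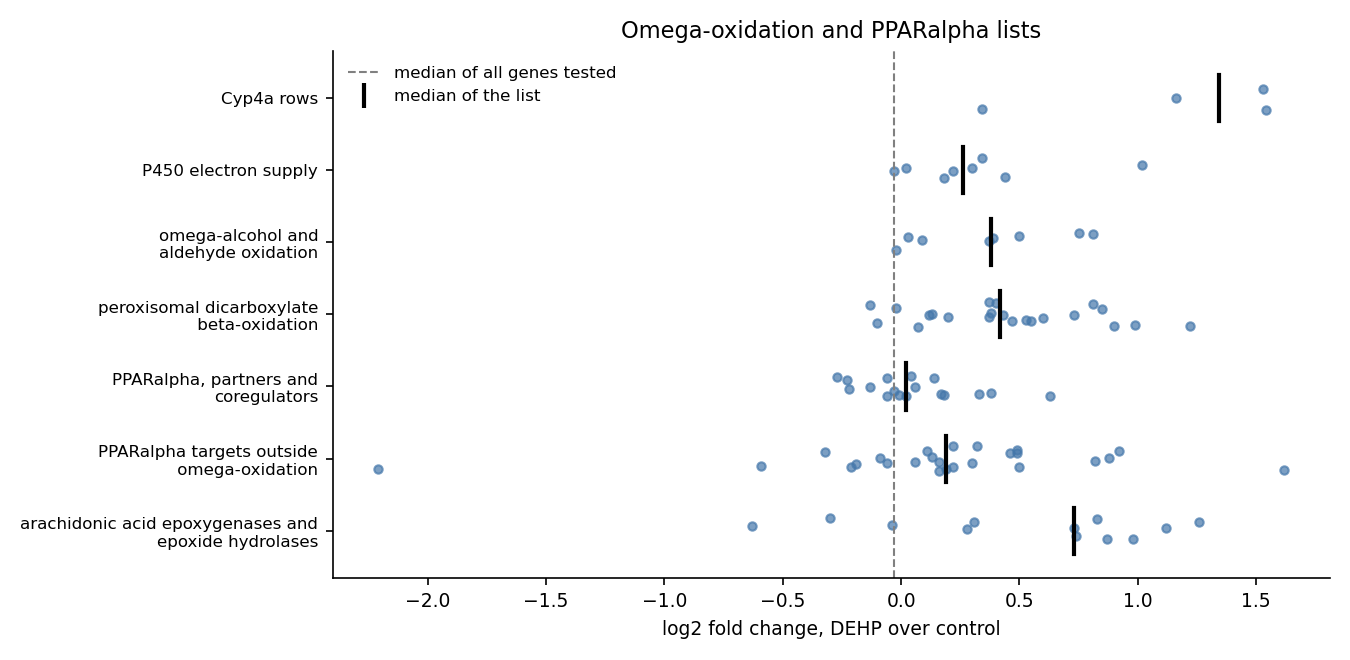
Log2 fold change of DEHP over control livers for each tested gene (points) of the Cyp4a rows and of 6 lists, with the median of each list as a black bar and the median of all 12468 genes as a dashed line; vertical scatter within a row has no meaning. The Cyp4a rows have a median of 1.35, the epoxygenases and hydrolases 0.73, and PPARalpha with its partners 0.02.

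Zonation and sex-linked control were read for the same libraries because Cyp4a genes are known to vary with both. Of 12 tested pericentral hepatocyte genes, 7 were higher and 0 lower at an unadjusted p under 0.05, with a median of 0.48. Over all genes tested, 6.11% were higher and 6.97% lower, the shares to set beside each count of this paragraph. Cyp2e1, the pericentral ethanol-oxidising P450, was at 9517 ± 3176 and 19762 ± 1141 CPM (1.05 ± 0.25, edgeR adjusted p = 0.151), and Oat at 971 ± 181 and 1471 ± 449 CPM (0.60 ± 0.24, adjusted p = 0.333). Of 12 periportal genes, 3 were higher and 0 lower at the same threshold, with a median of 0.16. The 8 tested male-biased liver genes had a median of 0.04, with 1 higher and 1 lower, and 10 tested genes of growth hormone signalling a median of 0.01, with 1 higher and 0 lower. Of 17 female-biased genes, only 3 were tested, with a median of 0.92.

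The genes nearest to Cyp4a14 across the 6 libraries were sought among 8547 named genes with a mean of at least 5 CPM, by the mean absolute difference of log2 levels centred on each gene's own mean. Over all these genes the median difference was 0.79. The nearest were Hsd17b11, a lipid droplet dehydrogenase, Pwp1 and Polr3g, each at 0.20, followed by Etnppl and Tenm3 at 0.21. Acaa1b, a peroxisomal thiolase, Sucnr1, the succinate receptor, and Ehhadh, the peroxisomal bifunctional enzyme, lay at 0.24. Acaa1b and Ehhadh also stand in the peroxisomal list. These genes were picked because their values lie near those of Cyp4a14, so sharing its pattern is no separate support. Hsd17b11 was at 106, 121 and 192 CPM in controls and 307, 413 and 341 CPM in exposed livers, without overlap (log2 fold change 1.34 ± 0.24, edgeR adjusted p = 0.0676). Ehhadh was at 89.7, 111 and 192 CPM in controls and 305, 290 and 322 CPM in exposed livers, without overlap (1.22 ± 0.25, edgeR adjusted p = 0.128). Among the members the difference from Cyp4a14 was 0.34 for G0029025, 0.42 for Cyp4a32, 0.54 for G0029026, 0.55 for Cyp4f15, 0.72 for Cyp4f14 and 0.78 for Cyp4f13.

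**Figure D5:**
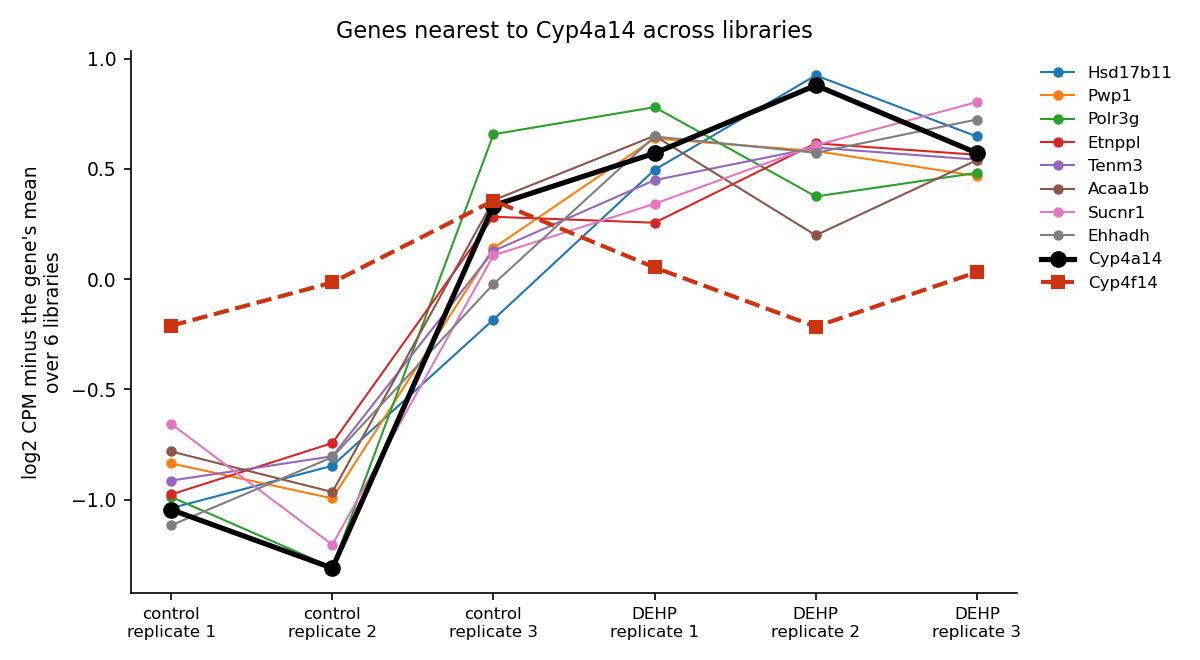
Log2 level of Cyp4a14 (black), its 8 nearest genes (thin lines) and Cyp4f14 (dashed) in each library, centred on each gene's mean over the 6 libraries; lines only join the values of a gene, as the replicates have no order. Cyp4a14 and its nearest genes, which were picked for this likeness, are low in control replicates 1 and 2. They are higher in control replicate 3 and the exposed livers, while Cyp4f14 is highest in control replicate 3.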

How the data were processed

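The authors deposited whole-number counts per gene for 6 mouse liver libraries in 1 table. The reads were paired ends of polyadenylated RNA from a kit that marks strand (per the labels' protocols). GRCm38.p6 is the build in the submitters' processing notes; the aligner, the counter and the strand setting of the counting were not given in the sources used here. Row identifiers are those of the C57BL/6NJ strain annotation, so row coordinates are given as deposited. Groups came from the sample titles, because the series' design text describes another assay.

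The 1284 rows without a gene name, 2.73% to 4.28% of counts, stayed out of library sizes and tests. edgeR 4.0.16 in R 4.3.3 (filterByExpr with a minimum count of 10, TMM scaling, robust quasi-likelihood test, two-sided, no covariate) was fitted to the whole table, and p-values were adjusted over 12468 genes by Benjamini-Hochberg, with calls at 0.05. RPKM are these CPM divided by the deposited gene length in kilobases. Single values were tested by exact permutation on log2 values or ratios, with 0.5 added to counts only in the ratios to Cyp4a14.

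The members and gene lists were chosen with earlier results of these data known, and lists are described by counts and medians with no test of the set. Named were all member rows, from each list the members past the threshold or else the 2 most abundant, and the 8 genes nearest to Cyp4a14; others are marked as named after seeing values. Some genes and lists under this rule are not reported. Replicate libraries all differed beyond sampling noise (chi-square per degree of freedom at least 28.4). Alternatives were RLE scaling, no low-count filter, a filter at a mean of 1 CPM, limma-voom (limma 3.58.1), DESeq2 1.42.0, a fit that is not robust, close copies summed, unnamed loci added, a replicate block, each library left out and, added after seeing the data, control replicates 1 and 2 left out and DESeq2 on the genes of the edgeR filter. The fit was also run on simulated counts with no split among the controls, so that run does not cover the split seen here.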

Additional observations from a re-analysis of the deposited data

How the results depend on the processing

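With 3 libraries a group and a common biological coefficient of variation of 27.8%, the calls moved with the controls used. Over all genes, 9 passed an adjusted p of 0.05 in edgeR, against 250 with DESeq2 under its own filter and 261 with DESeq2 on the same 12468 genes, 496 with no low-count filter, 2 with limma-voom and 0 in edgeR with control replicates 1 and 2 left out, where 642 had an unadjusted p under 0.05. Leaving out 1 library at a time gave 5 to 400 genes, the highest without control replicate 3. Of the 4 Cyp4a rows, 0 were called, against 1, Cyp4a14, with no filter (log2 fold change 1.19, adjusted p = 7.59e-05), and 0 to 4 with a library left out, the 4 without control replicate 3. Left-out libraries gave log2 fold changes of 0.88 to 1.88 for Cyp4a14, 1.21 to 2.32 for G0029025, 1.17 to 2.21 for Cyp4a32 and -0.14 to 1.71 for G0029026. The difference in ratio of G0029026 to Cyp4a14, -0.38, ran from -1.01 to 0.01 and reversed to 0.01 without control replicate 3. Over all settings tried, Cyp4a14, G0029025 and Cyp4a32 had positive log2 fold changes, and Cyp4f14 ranged from -0.38 to 0.09 and Cyp4f13 from -0.05 to 0.09. The cause of the shifts under DESeq2, limma-voom and no filter was not tested.

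Over all genes tested, no pairing of the samples by replicate number was detected, which with 3 libraries a group does not exclude a weak pairing. Deviations of libraries with the same number correlated at -0.021, 0.057 and -0.028, and only the second correlated best with its own number. With a replicate block, 6 genes and 0 Cyp4a rows were called, and the log2 fold change of Cyp4a14 was 1.36 (edgeR adjusted p = 0.247). It was 1.71 ± 0.27 for G0029025 (adjusted p = 0.144), 1.68 ± 0.22 for Cyp4a32 (adjusted p = 0.0716) and 0.95 ± 0.88 for G0029026 (adjusted p = 0.704). The SE of G0029025 and Cyp4a32 had been 0.55 and 0.54 without the block.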
